A study of Rattus norvegicus with 12 samples.

Results

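The genes described are 44 enzymes, transporters and regulators of glycolysis, of pyruvate entry into mitochondria and of the citric acid cycle. They were chosen by name: a gene belonged if its symbol in the deposited counts table was identical to a symbol of a fixed list, and each of the 44 symbols was found there exactly once, among 29009 genes in all. By step, 16 were glycolytic enzymes, 4 served sugar and lactate transport or the regulation of glycolysis, 9 belonged to pyruvate entry and 15 to the citric acid cycle. All 44 passed the filter on low counts, as did 19094 genes of the table. RNA was sequenced from the medial prefrontal cortex (mPFC) of 12 rats in 3 groups of 4, one library per rat. The question put to the data was whether RNA for these pathways differed after a long period of prefrontal activation, and whether treatment with an oxytocin receptor agonist afterwards shifted it.

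In the chronic prefrontal activation (CPA) groups an adeno-associated virus with a CaMKII promoter, which is active mainly in excitatory neurons, carried hM3Dq-mCherry into the mPFC. hM3Dq is a receptor derived from the muscarinic M3 receptor that responds to clozapine-N-oxide (CNO), and it was activated over 10 days through CNO in the drinking water. CPA+veh rats then received vehicle and CPA+RO rats received RO6958375, a selective peptide agonist of the oxytocin receptor, once daily over 7 days. Rats of the control+veh group carried a virus with a fluorophore only and received vehicle, and whether they also drank CNO was not stated for this experiment. All animals were male Sprague Dawley rats, their tissue was dissected from slices already used for electrophysiology, and no group of control rats received RO6958375, so an effect of the agonist without CPA could not be compared. The tissue was not sorted, so infected excitatory neurons, other neurons, glia and vessel cells contributed to every library, and fewer cells of a type and less RNA per cell cannot be told apart.

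Glycolysis splits glucose into pyruvate in the cytosol, and lactate dehydrogenase interconverts pyruvate and lactate. Pyruvate enters mitochondria through the mitochondrial pyruvate carrier and is turned into acetyl-CoA by the pyruvate dehydrogenase complex, which pyruvate dehydrogenase kinases inhibit. The citric acid cycle oxidises acetyl-CoA and passes electrons to the respiratory chain. In brain, neurons and astrocytes are known to use these steps unequally, and aldolase C (Aldoc) is a widely used astrocyte gene.

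The libraries held 64993543 to 79006972 counts and correlated at r = 0.986 to 0.990 within groups over 18 pairs, a description across genes on log2 CPM. CPM is a gene's count scaled to a fixed library total, here after TMM normalisation. Rat Chrm3, to which reads of the hM3Dq receptor may be assigned, ranged from 53.1 to 64.9 CPM in control rats, from 71.1 to 292 CPM in CPA rats on vehicle and from 101 to 247 CPM in those on RO6958375, so every CPA rat was above every control rat (log2 fold change 1.74 for CPA+veh against control+veh, edgeR adjusted p = 0.0762). The 71.1 CPM, close to the control range, was that of CPA+veh replicate 1, against 225, 185 and 292 CPM in replicates 2, 3 and 4. Marker genes of excitatory neurons, interneurons, astrocytes, oligodendrocytes, microglia and endothelial cells were detected in every library, with none at 0. CPA+veh replicates 1 and 2 stood apart. Their oligodendrocyte markers were 0.60 and 0.30 above the control mean in median log2 level, their microglia markers 0.43 and 0.42 above it, and their endothelial markers 0.66 below it in both. Astrocyte markers were 0.44 above the control mean in CPA+veh replicate 1 and 0.05 above it in replicate 2. Member values and step medians that rest on those 2 rats are given with and without them, and the part of their marker levels in any result was not tested.

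No member of the pathways passed an adjusted p under 0.05 in any comparison. Of CPA+veh against control+veh, 0 of 44 members passed, where 0.115% of all genes tested did. For CPA+RO against CPA+veh the count was 0 of 44 against 0% of all genes, and for CPA+RO against control+veh it was 0 of 44 against 0.11%. A single test over the 3 groups passed 0 of 44 members and 0.136% of all genes. DESeq2 and limma-voom also passed 0 of 44 members in each of these 4 tests. At an unadjusted p under 0.05 the edgeR fit held 2 members for CPA+veh against control+veh (background 9.94% of all genes), 4 for CPA+RO against CPA+veh (background 4.41%), 1 for CPA+RO against control+veh (background 5.75%) and 1 in the test over the 3 groups (background 6.84%). In DESeq2 the same counts were 2, 4, 2 and 1, where 10.5%, 4.75%, 6.17% and 8.13% of all genes were under 0.05, and in limma-voom 2, 4, 2 and 0, where 9.79%, 4.33%, 5.98% and 6.71% were. The 2 members of the first comparison make up 4.55% of the 44, a smaller share than the background of 9.94%. The 4 of the second make up 9.09%, a larger share than the background of 4.41%, a difference in shares that was not tested. Of these 4, Mpc2, Pdhb and Sdhd had log2 fold changes of -0.17, -0.13 and -0.16. Without CPA+veh replicates 1 and 2 they had -0.06, -0.08 and -0.05, while Pfkp had 0.13 with those rats and 0.14 without.

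The fold changes were small in every step. The largest log2 fold change of any member was 0.24, that of Aldoc in CPA+veh against control+veh, and none of the 44 exceeded 0.25 in size in any comparison, which 21.4%, 18.2% and 18.3% of the 19094 genes tested did in the 3 comparisons in the order above. Many of those genes are low in counts. Among the 8734 genes tested at or above the mean level of the lowest member, 4.27%, 2.37% and 1.9% exceeded it, so a count of 0 among 44 lies close to that background.

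**Figure D1:**
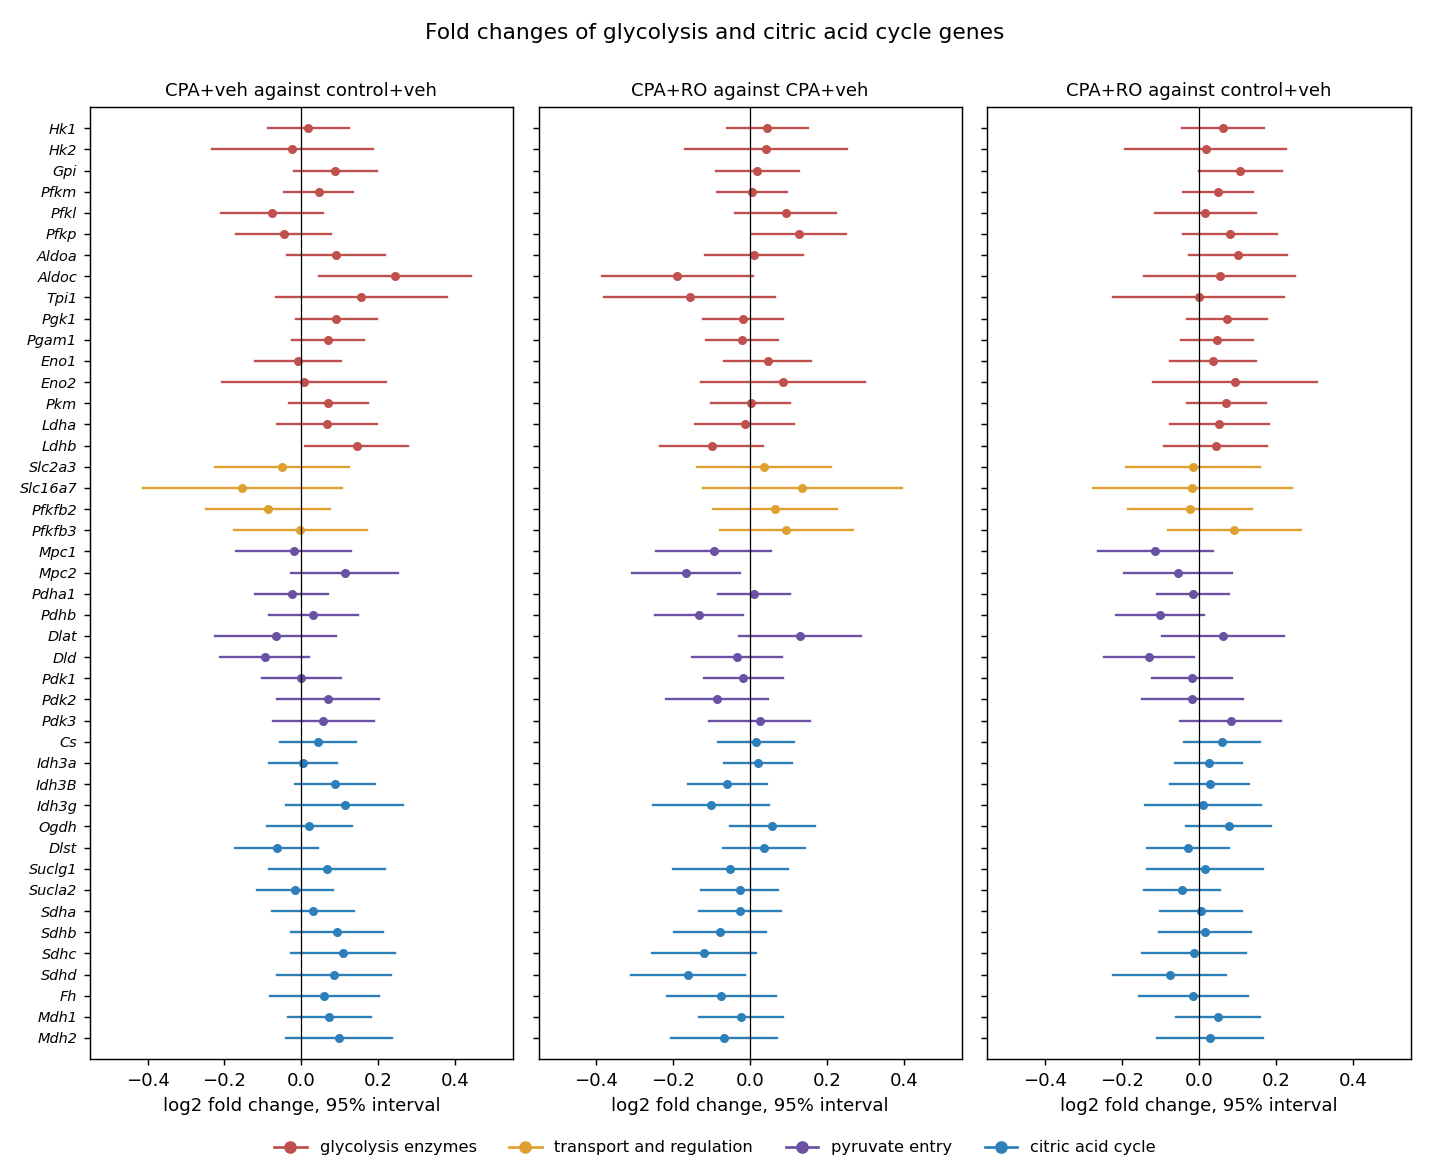
Log2 fold change of each of the 44 genes (rows, coloured by step) with its 95% interval in the 3 comparisons, from 1 edgeR fit over 12 libraries. No point lies beyond 0.25 on either side, and after adjustment over 19094 genes no gene passed 0.05.

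Levels per gene length spanned a wide range within the pathways. By the authors' RPKM, which scales reads by gene model length and library size, averaged over 12 rats, Aldoa had the highest level, 951 RPKM, followed by the cytosolic malate dehydrogenase Mdh1 at 537 RPKM and Aldoc at 529 RPKM. The lowest level was that of hexokinase 2 (Hk2), 2.29 RPKM, while hexokinase 1 (Hk1), the main form in brain, lay at 189 RPKM. Citrate synthase (Cs) stood at 153 RPKM, and the 4 transport and regulation genes lay between 3.96 RPKM (Slc16a7) and 12.5 RPKM (Slc2a3). The 44 genes together took 1.51% to 1.72% of the counts of a library, with the highest share in CPA+veh replicate 2.

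**Figure D2:**
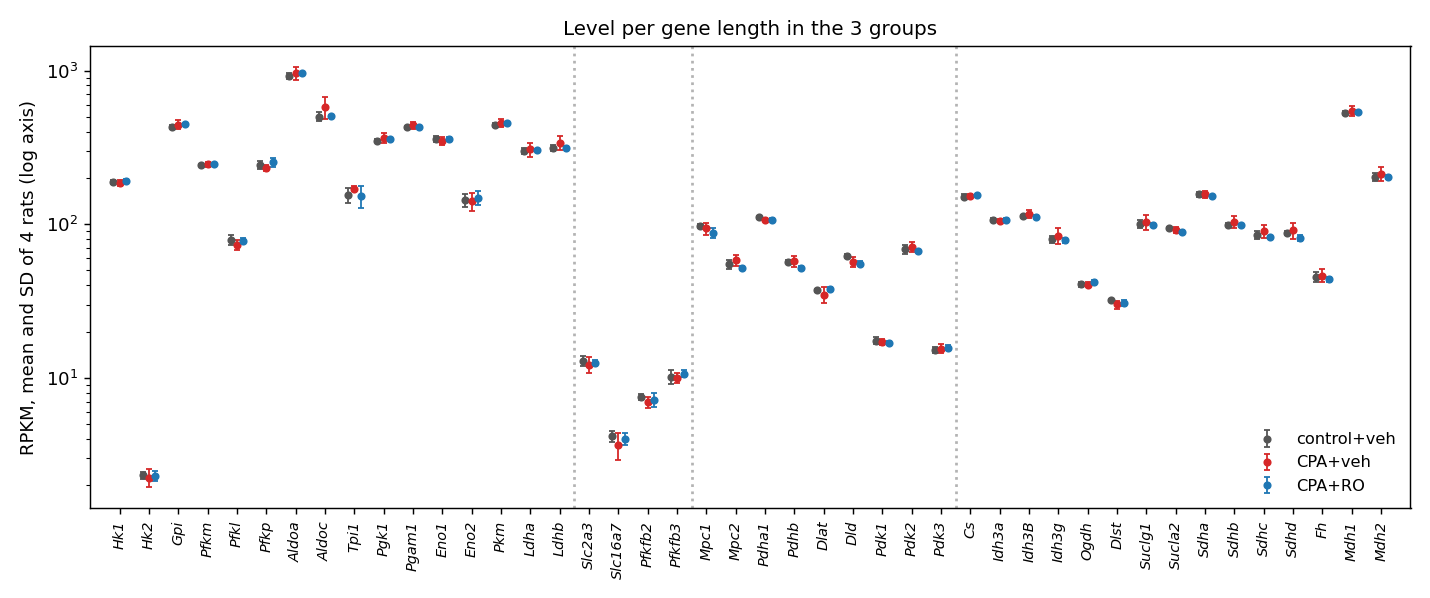
Mean RPKM and SD of 4 rats per group for each gene on a log axis, in the order glycolytic enzymes, transport and regulation, pyruvate entry and citric acid cycle. The 3 groups lie close together for every gene, from 2.29 RPKM (Hk2) to 951 RPKM (Aldoa) over all rats.

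Mean shares of alternative enzyme forms, computed from RPKM, were close between groups. Hk1 made up 98.8% ± 0.0405 (SD, n = 4) of Hk1 and Hk2 in the control+veh rats, 98.8% ± 0.122 in the CPA+veh rats and 98.8% ± 0.0504 in the CPA+RO rats. Of the 3 phosphofructokinases, the muscle form Pfkm held 42.9% ± 1.54, 44.6% ± 0.415 and 42.6% ± 1.28 in the same order, and the platelet form Pfkp 43.1% ± 1.66, 42.1% ± 0.461 and 43.8% ± 1.41. The Pfkm share ran from 44.18% to 45.11% in CPA+veh and from 40.99% to 44.13% in CPA+RO, narrowly without overlap. Control+veh, from 41.21% to 44.91%, overlapped both. The share of Aldoc among the 2 aldolases was 35.1% ± 0.639, 37.5% ± 3.89 and 34.4% ± 0.23. That wider spread in CPA+veh came from replicate 1, in which Aldoc took 43.0% of the pair against 33.8% to 36.6% in the other CPA+veh rats. Enolase 2 (Eno2), the neuronal enolase, took 28.5% ± 2.54, 28.6% ± 1.91 and 29.3% ± 2.13 of Eno1 and Eno2, and lactate dehydrogenase B (Ldhb) 51.1% ± 1.17, 52.5% ± 0.583 and 50.98% ± 0.946 of Ldha and Ldhb. Pdk2 was the leading pyruvate dehydrogenase kinase of the 3 measured, with 67.8% ± 1.39, 68.5% ± 2.37 and 67.2% ± 0.393. No test was made of these shares.

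Among the glycolytic enzymes, Aldoc had the largest difference. Its level was 822, 770.4, 815 and 716 CPM in the control rats, 1112, 988, 794 and 801 CPM after CPA with vehicle and 798, 807, 808 and 828 CPM after CPA with RO6958375. CPA+veh replicates 1 and 2 were above all other rats, while replicates 3 and 4 lay within the control range. The log2 fold change of CPA+veh against control+veh was 0.24 ± 0.0921 (SE, edgeR adjusted p = 0.428) and that of CPA+RO against CPA+veh -0.19 ± 0.0921 (SE, edgeR adjusted p = 0.876). Without CPA+veh replicates 1 and 2 the first value was 0.03 and the second 0.02. The astrocyte marker median of CPA+veh replicate 1 was 0.44 above the control mean, and 9 of 10 astrocyte markers had a log2 fold change above 0 in that comparison. Their summed level ranged from 2177 to 2636 CPM in the control+veh rats, 2380 to 3351 CPM in the CPA+veh rats and 2441 to 2737 CPM in the CPA+RO rats. The part of astrocyte RNA in the Aldoc result was not tested.

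Ldhb, the lactate dehydrogenase subunit linked to lactate use, measured 456, 445, 434 and 416 CPM in control rats, against 492, 545, 459 and 437 CPM in CPA rats on vehicle and 459, 449.8, 438 and 457 CPM in those on RO6958375. Again the higher values were those of CPA+veh replicates 1 and 2, and the groups overlapped. CPA+veh differed from control+veh by a log2 fold change of 0.14 ± 0.0625 (SE, edgeR adjusted p = 0.485), and CPA+RO from CPA+veh by -0.10 ± 0.0625 (SE, edgeR adjusted p = 0.876). Leaving out CPA+veh replicates 1 and 2 gave 0.03 and 0.01. Ldha, the subunit linked to lactate production, stood at 564, 519.8, 551 and 543 CPM in the control+veh rats, 563, 645, 555 and 519 CPM in the CPA+veh rats and 566, 571, 573 and 548 CPM in the CPA+RO rats. A single rat, CPA+veh replicate 2, exceeded the rest, and the 3 log2 fold changes of Ldha lay between -0.01 and 0.07, with -0.02 for CPA+veh against control+veh without CPA+veh replicates 1 and 2.

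Promoter sequence is shown for Aldoc, the member with the largest fold change, for Ldha, whose promoter held the motif described next at 2 places, and for genes of the later steps below. The RefSeq promoter table (build GRCr8) held 41 of the 44 genes, and the 250 bases before each start site were searched on both strands for ACGTG, the core of the hypoxia response element, a motif that overlaps with the E-box. It was present in 7 of 15 glycolytic promoters (Hk1, Pfkm, Aldoa, Aldoc, Pgam1, Eno2 and Ldha), in 2 of 3 of transport and regulation (Slc16a7 and Pfkfb3), in 4 of 9 of pyruvate entry (Pdhb, Dlat, Pdk2 and Pdk3) and in 2 of 14 of the citric acid cycle (Idh3g and Ogdh). The share among all 33469 promoters was 16.6%. The members' promoters were richer in G and C, with medians of 58.0% in glycolysis, 62.0% in pyruvate entry and 59.8% in the citric acid cycle against 51.2% over all promoters, so the shares are a description and no factor's binding is read from them. Capitals mark a match on either strand, and run on where matches overlap. The promoters of Ldha (chr1:106507842-106508091, plus strand, GRCr8) and Aldoc (chr10:63715294-63715543, plus strand, GRCr8) read 5′ to 3′:
Ldha: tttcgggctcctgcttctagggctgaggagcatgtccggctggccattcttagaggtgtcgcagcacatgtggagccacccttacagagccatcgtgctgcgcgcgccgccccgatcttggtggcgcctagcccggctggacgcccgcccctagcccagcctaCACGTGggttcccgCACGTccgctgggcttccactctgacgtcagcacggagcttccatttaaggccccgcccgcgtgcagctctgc
Aldoc: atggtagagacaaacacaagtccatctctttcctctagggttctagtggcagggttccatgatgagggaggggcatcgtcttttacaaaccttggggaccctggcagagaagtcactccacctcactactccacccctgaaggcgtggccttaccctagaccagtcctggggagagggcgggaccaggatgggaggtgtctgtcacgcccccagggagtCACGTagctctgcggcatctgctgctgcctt

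Phosphofructokinase commits sugar to glycolysis. Pfkp was measured at 658, 594, 677 and 662 CPM in the control rats, 619, 647, 647 and 596 CPM after CPA with vehicle and 662, 646, 741 and 692 CPM after CPA with RO6958375. The 2 highest values were CPA+RO replicates 3 and 4, and CPA+RO replicate 2 lay within the CPA+veh range. The log2 fold change of CPA+RO against CPA+veh was 0.13 ± 0.0575 (SE, edgeR adjusted p = 0.876), 1 of the 4 members at an unadjusted p under 0.05 in that comparison, and it was 0.14 without CPA+veh replicates 1 and 2. Pfkm measured 658, 665, 639.9 and 657 CPM in control rats, against 682, 699, 682 and 640.5 CPM in CPA rats on vehicle and 669, 682, 676 and 684 CPM in those on RO6958375. Every CPA+RO rat exceeded every control rat, by little and not when scaled by total count alone. Its log2 fold change for CPA+RO against control+veh was 0.05 ± 0.0423 (SE, edgeR adjusted p = 0.915).

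Hk1, which phosphorylates glucose, stood at 581, 597, 628 and 611 CPM in the control+veh rats, 603, 603, 658 and 583 CPM in the CPA+veh rats and 626, 613, 629 and 655 CPM in the CPA+RO rats. The groups overlapped throughout, and the log2 fold changes of Hk1 were between 0.02 and 0.06. Glucose-6-phosphate isomerase (Gpi), the next enzyme, measured 852, 857, 869.9 and 817 CPM in the control rats, 891, 961, 930.4 and 829 CPM after CPA with vehicle and 934, 904, 905 and 915 CPM after CPA with RO6958375. All CPA+RO rats lay above all control rats, while CPA+veh replicate 4 was within the control range. CPA+RO against control+veh gave a log2 fold change of 0.11 ± 0.0502 (SE, edgeR adjusted p = 0.859).

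Aldoa, the second aldolase, measured 2005, 1972, 2067 and 1865 CPM in control rats, against 2027, 2348, 2135 and 1916 CPM in CPA rats on vehicle and 2103, 2087, 2136 and 2154 CPM in those on RO6958375. Phosphoglycerate kinase 1 (Pgk1), an ATP-forming step, measured 572, 572, 585 and 558 CPM in the control+veh rats, 612, 658, 599 and 568 CPM in the CPA+veh rats and 609, 587, 602 and 607 CPM in the CPA+RO rats. Pyruvate kinase (Pkm), the last step, measured 1218, 1229, 1245 and 1156 CPM in the control rats, 1249, 1348, 1298 and 1192 CPM after CPA with vehicle and 1280.4, 1275, 1247 and 1292 CPM after CPA with RO6958375. In all 3 of these genes the CPA+RO rats were tightly grouped just above the control rats at this scaling, and CPA+veh replicate 2 was the highest of the 12. Log2 fold changes for CPA+RO against control+veh were 0.10 ± 0.0594 (SE, edgeR adjusted p = 0.881) for Aldoa, 0.07 ± 0.0487 (SE, edgeR adjusted p = 0.887) for Pgk1 and 0.07 ± 0.0479 (SE, edgeR adjusted p = 0.889) for Pkm. For CPA+veh against control+veh, Pgk1 had 0.09 ± 0.0488 (SE, edgeR adjusted p = 0.541), or 0.03 without CPA+veh replicates 1 and 2.

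The other glycolytic enzymes were Hk2, liver phosphofructokinase (Pfkl), triosephosphate isomerase (Tpi1), phosphoglycerate mutase 1 (Pgam1), enolase 1 (Eno1) and Eno2. Over the 12 rats Hk2 ranged from 11.6 to 16.3 CPM, Pfkl from 200.2 to 242 CPM, Tpi1 from 190.01 to 270.02 CPM, Eno1 from 639.96 to 740.4 CPM and Eno2 from 308 to 433 CPM. The log2 fold changes of the 6 ranged from -0.08 (Pfkl) to 0.16 (Tpi1) for CPA+veh against control+veh, from -0.16 (Tpi1) to 0.09 (Pfkl) for CPA+RO against CPA+veh, and from 0.00 (Tpi1) to 0.09 (Eno2) for CPA+RO against control+veh. Without CPA+veh replicates 1 and 2 the first range was -0.13 to 0.13 and the second -0.13 to 0.15. Pgam1 lay between 747 and 776 CPM in control+veh and between 780.3 and 789.8 CPM in CPA+RO, without overlap except when scaled by total count alone. Tpi1 had the widest within-group spread of the glycolytic enzymes, an SD of 0.17 on the log2 scale. Several of these enzymes are known for processed pseudogenes, and the handling of reads that match more than 1 place is not given in the sources used here, so their levels carry that uncertainty.

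**Figure D3:**
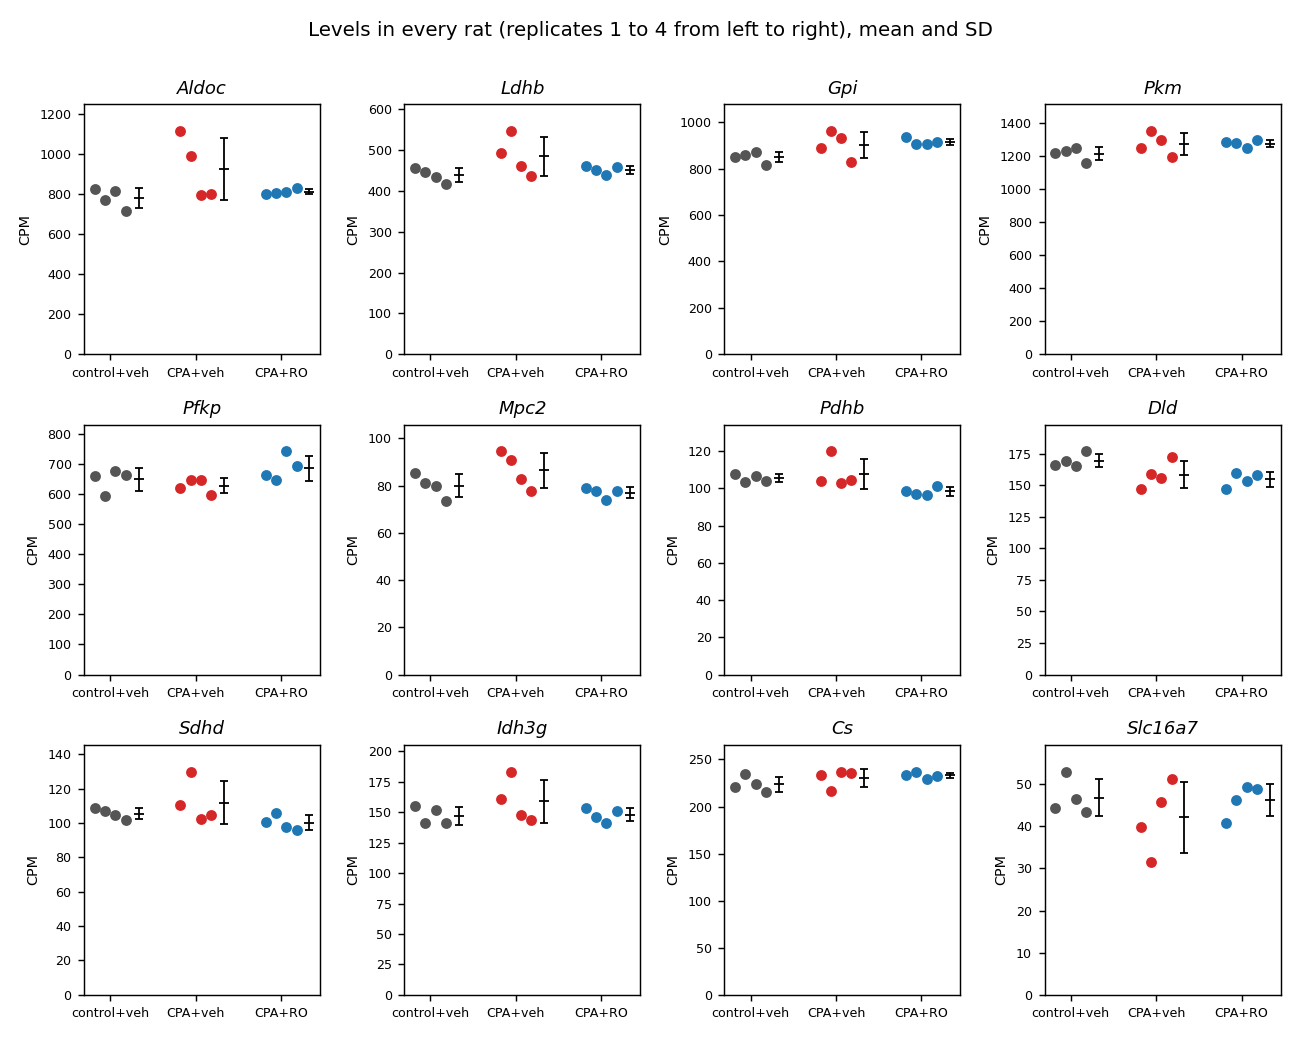
CPM of 12 of the genes in every rat (points) with the mean and SD of 4 rats per group (bars at the side), on axes that start at 0. Aldoc and Ldhb are high in CPA+veh replicates 1 and 2 only, while Gpi and Pkm in CPA+RO lie just above control+veh, Pkm only with TMM scaling or the alternatives close to it and not with scaling by total count alone.

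Counts of members whose groups of 4 did not overlap differed between the comparisons. CPA+veh and control+veh overlapped in all 44 members, where 4.62% of all genes did not overlap. CPA+RO and CPA+veh were apart in 1 member, Pdhb, against a background of 1.95%. CPA+RO and control+veh were apart in 8 members, against a background of 5.57%: Gpi, Pfkm, Aldoa, Pgk1, Pgam1 and Pkm were higher in CPA+RO (6 members, background 2.83%), and Pdhb and dihydrolipoamide dehydrogenase (Dld) were lower (2 members, background 2.74%). Among the 8734 genes tested at or above the level of the lowest member, 381 were higher in CPA+RO without overlap and 210 lower. All 6 that were higher are glycolytic enzymes and both that were lower belong to pyruvate entry. None of the 8 had an adjusted p under 0.05, the lowest being 0.831 for Dld. The 6 depend on the scaling: with CPM by total count alone, an alternative chosen after the data were seen, 4 members were apart, of which Gpi was higher and Mpc1, Pdhb and Dld were lower, where 1.33% of all genes were higher without overlap and 4.73% lower. With DESeq2's size factors or a correction for gene length the same 8 members were apart. For CPA+RO against CPA+veh, Pfkp and Pdhb were apart with those size factors and Pfkp and Mpc2 after the correction for length. The scaling factors (TMM) were 1.006 to 1.028 in control+veh and 0.988 to 0.995 in CPA+RO, so they separated these groups too.

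Transport and regulation genes had log2 fold changes close to 0 with a wide spread. The neuronal glucose transporter Slc2a3 (GLUT3) measured 53.4, 59.5, 59 and 64.9 CPM in control rats, against 50.1, 56.2, 66.6 and 55.9 CPM in CPA rats on vehicle and 59.2, 55.5, 61.8 and 57.9 CPM in those on RO6958375. The groups overlapped, and its log2 fold changes were -0.05, 0.03 and -0.02 in the order of the comparisons above, the first 2 of which turned to 0.05 and -0.06 without CPA+veh replicates 1 and 2. The monocarboxylate transporter Slc16a7 (MCT2), through which neurons take up lactate, measured 44.2, 53, 46.6 and 43.5 CPM in the control+veh rats, 39.9, 31.5, 45.8 and 51.1 CPM in the CPA+veh rats and 40.8, 46.1, 49.3 and 48.8 CPM in the CPA+RO rats. It was the most variable member, with a 1.68-fold range over 12 rats. CPA+veh replicates 1 and 2 were the lowest of the 12, and their endothelial and oligodendrocyte markers stood apart as well. CPA+veh against control+veh gave -0.15 ± 0.121 (SE, edgeR adjusted p = 0.688) and CPA+RO against CPA+veh 0.14 ± 0.121 (SE, edgeR adjusted p = 0.876). Without those 2 rats the values were 0.05 and -0.07, both of the opposite sign.

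Pfkfb2 and Pfkfb3 set the level of fructose-2,6-bisphosphate, an activator of phosphofructokinase. Pfkfb2 measured 69, 65, 71 and 72.1 CPM in the control rats, 67.3, 61.3, 60.9 and 71.4 CPM after CPA with vehicle and 63.6, 60.9, 74.5 and 73.7 CPM after CPA with RO6958375. Pfkfb3 measured 63.8, 62.3, 52.5 and 67.7 CPM in control rats, against 59.8, 56.8, 69.1 and 60.1 CPM in CPA rats on vehicle and 65.6, 69.9, 61.2 and 65.7 CPM in those on RO6958375. In neither gene were the groups apart. The log2 fold changes of Pfkfb2 lay between -0.09 and 0.06 and those of Pfkfb3 between 0.00 and 0.09, and without CPA+veh replicates 1 and 2 Pfkfb2 lay between -0.07 and 0.04 and Pfkfb3 between 0.02 and 0.09.

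At an unadjusted p under 0.05, 3 members had a log2 fold change below 0 for CPA+RO against CPA+veh, and 2 of them, Mpc2 and Pdhb, belong to pyruvate entry. Mpc2, a subunit of the mitochondrial pyruvate carrier, measured 85.5, 81, 79.8 and 73.7 CPM in the control+veh rats, 94.5, 90.8, 82.9 and 77.8 CPM in the CPA+veh rats and 79, 77.6, 73.7 and 77.9 CPM in the CPA+RO rats. CPA+veh replicates 1 and 2 were the highest of the 12 rats. The log2 fold change of CPA+RO against CPA+veh was -0.17 ± 0.0654 (SE, edgeR adjusted p = 0.876), and it was -0.06 without those 2 rats. CPA+veh against control+veh gave 0.11 ± 0.0654 (SE, edgeR adjusted p = 0.575), or 0.01 without them. The partner subunit Mpc1 measured 81.1, 85.3, 89.1 and 85.7 CPM in the control rats, 90.5, 90.3, 81.2 and 74.8 CPM after CPA with vehicle and 71.2, 84.3, 80.6 and 79.2 CPM after CPA with RO6958375, with its lowest value in CPA+RO replicate 1. Its log2 fold change for CPA+RO against control+veh was -0.11 ± 0.0697 (SE, edgeR adjusted p = 0.881).

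Pdhb, the beta subunit of pyruvate dehydrogenase E1, measured 108, 104, 107 and 104 CPM in control rats, against 104, 119.8, 103 and 105 CPM in CPA rats on vehicle and 98.8, 96.9, 96.4 and 102 CPM in those on RO6958375. Every CPA+RO rat was below every rat of both other groups. The log2 fold changes were -0.13 ± 0.0535 (SE, edgeR adjusted p = 0.876) for CPA+RO against CPA+veh and -0.10 ± 0.0535 (SE, edgeR adjusted p = 0.879) for CPA+RO against control+veh, and the first was -0.08 without CPA+veh replicates 1 and 2. The alpha subunit Pdha1 measured 305, 308, 301 and 319 CPM in the control+veh rats, 306, 289, 310.4 and 305 CPM in the CPA+veh rats and 297, 315, 308 and 299 CPM in the CPA+RO rats. Its 3 log2 fold changes lay between -0.03 and 0.01, and the 95% interval for CPA+RO against CPA+veh ran from -0.08 to 0.10 against -0.25 to -0.02 for Pdhb. The difference between the subunits was not tested. The Pdhb promoter, shown because Pdhb was apart from both other groups in CPA+RO, held the motif on both strands at 2 places, marked in capitals (chr15:19182539-19182788, plus strand, GRCr8):
Pdhb: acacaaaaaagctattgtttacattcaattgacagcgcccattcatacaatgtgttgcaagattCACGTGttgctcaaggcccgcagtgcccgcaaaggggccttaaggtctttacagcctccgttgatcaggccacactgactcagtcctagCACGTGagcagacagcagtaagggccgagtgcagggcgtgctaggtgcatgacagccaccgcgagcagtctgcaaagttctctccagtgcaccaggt

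Dld, the E3 subunit shared by the pyruvate and oxoglutarate dehydrogenase complexes, measured 166, 169, 165 and 177 CPM in the control rats, 147, 159, 155 and 172 CPM after CPA with vehicle and 147, 159.8, 153 and 158 CPM after CPA with RO6958375. All CPA+RO rats were below all control rats, and 3 of 4 CPA+veh rats were as well. Log2 fold changes were -0.10 ± 0.0544 (SE, edgeR adjusted p = 0.566) for CPA+veh against control+veh (-0.05 without CPA+veh replicates 1 and 2) and -0.13 ± 0.0544 (SE, edgeR adjusted p = 0.831) for CPA+RO against control+veh. Dlat, the E2 subunit, measured 91.7, 95.8, 97.3 and 96.9 CPM in control rats, against 91.1, 75.1, 98.2 and 99.97 CPM in CPA rats on vehicle and 96.4, 99.3, 101 and 102 CPM in those on RO6958375. One value stood low, CPA+veh replicate 2. CPA+RO against CPA+veh gave 0.13 ± 0.0739 (SE, edgeR adjusted p = 0.876), or 0.01 without CPA+veh replicates 1 and 2. Pdk2 measured 149.6, 155, 149.9 and 132 CPM in the control+veh rats, 161, 163, 152 and 139 CPM in the CPA+veh rats and 147, 148, 144 and 140.5 CPM in the CPA+RO rats, with the groups overlapping and a log2 fold change of 0.07 ± 0.0614 (SE, edgeR adjusted p = 0.724) for CPA+veh against control+veh, or -0.01 without CPA+veh replicates 1 and 2. Pdk1 ranged from 83.7 to 93.1 CPM and Pdk3 from 36.5 to 42.4 CPM over the 12 rats, and both had log2 fold changes between -0.02 and 0.08 over the 3 comparisons.

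Citric acid cycle genes had a median log2 fold change of 0.07 for CPA+veh against control+veh, with 13 of 15 above 0 (7 of 15 without CPA+veh replicates 1 and 2), none of them past the test. Sdhd, which anchors succinate dehydrogenase in the inner membrane, measured 109, 107, 104 and 102 CPM in the control rats, 111, 129.8, 102 and 104 CPM after CPA with vehicle and 101, 106, 97.6 and 95.9 CPM after CPA with RO6958375. CPA+veh replicate 2 was the highest of the 12 and CPA+RO replicates 3 and 4 were the lowest. CPA+RO against CPA+veh gave -0.16 ± 0.0689 (SE, edgeR adjusted p = 0.876), and -0.05 without CPA+veh replicates 1 and 2. Sdhc, the other anchor, measured 111, 101, 103 and 103 CPM in control rats, against 119.5, 124, 102 and 105 CPM in CPA rats on vehicle and 102, 102, 106 and 104 CPM in those on RO6958375. The same 2 CPA+veh rats were high, and the log2 fold changes were 0.11 ± 0.0629 (SE, edgeR adjusted p = 0.572) for CPA+veh against control+veh and -0.12 ± 0.0629 (SE, edgeR adjusted p = 0.876) for CPA+RO against CPA+veh. Without those 2 rats they were -0.01 and 0.00.

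Sdhb, the iron-sulfur subunit, measured 96.4, 96.3, 95.1 and 92.8 CPM in the control+veh rats, 103, 112, 97.1 and 93.6 CPM in the CPA+veh rats and 98.9, 97.4, 94.9 and 93.7 CPM in the CPA+RO rats. Sdha, the flavoprotein subunit, measured 365, 354, 354 and 334 CPM in the control rats, 376, 374, 354 and 332 CPM after CPA with vehicle and 351, 349, 353 and 358 CPM after CPA with RO6958375. Both overlapped between all groups. For CPA+veh against control+veh the log2 fold change was 0.09 ± 0.0558 (SE, edgeR adjusted p = 0.583) for Sdhb, or 0.00 without CPA+veh replicates 1 and 2. Sdha had 0.03, -0.03 and 0.00 in the 3 comparisons, and the first 2 turned to -0.04 and 0.04 without those rats.

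The 3 subunits of the NAD-dependent isocitrate dehydrogenase were measured alongside. Idh3B measured 175, 178, 170.1 and 170.2 CPM in control rats, against 176, 198, 184 and 178 CPM in CPA rats on vehicle and 179.7, 181, 169.8 and 176 CPM in those on RO6958375, with CPA+veh replicate 2 highest. Idh3g measured 155, 141, 151 and 141 CPM in the control+veh rats, 161, 183, 148 and 143 CPM in the CPA+veh rats and 153, 146, 141 and 151 CPM in the CPA+RO rats, and again CPA+veh replicate 2 was highest. The log2 fold change of CPA+veh against control+veh was 0.09 ± 0.0484 (SE, edgeR adjusted p = 0.564) for Idh3B, and that of CPA+RO against CPA+veh was -0.10 ± 0.0708 (SE, edgeR adjusted p = 0.876) for Idh3g. Without CPA+veh replicates 1 and 2 the first was 0.06 and the second 0.02. Idh3a, the catalytic subunit, was the steadiest of the 44 genes, with a 1.08-fold range over 12 rats and log2 fold changes between 0.00 and 0.03.

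Cs, the entry enzyme of the cycle, measured 221, 235, 224 and 215 CPM in the control rats, 233, 217, 237 and 235 CPM after CPA with vehicle and 234, 236, 229.6 and 232 CPM after CPA with RO6958375. Ogdh, the E1 subunit of the oxoglutarate dehydrogenase complex, measured 207, 233, 226 and 219.8 CPM in control rats, against 223, 212, 234 and 231 CPM in CPA rats on vehicle and 222, 235, 238 and 240.4 CPM in those on RO6958375. In both genes the CPA+RO rats lay in the upper part of the control range or above it. CPA+RO against control+veh gave 0.06 ± 0.0461 (SE, edgeR adjusted p = 0.914) for Cs and 0.08 ± 0.0517 (SE, edgeR adjusted p = 0.886) for Ogdh. The remaining members were Dlst, Suclg1, Sucla2, Fh and Mdh2, on the steps from succinyl-CoA formation to oxaloacetate, and Mdh1, listed with them though cytosolic. Over the 12 rats Mdh1, the cytosolic malate dehydrogenase, ranged from 960.1 to 1129 CPM, the mitochondrial Mdh2 from 239.7 to 314 CPM, and fumarate hydratase (Fh) from 67.1 to 83.2 CPM. The succinyl-CoA ligase subunits Suclg1 and Sucla2 ranged from 114 to 149.9 CPM and from 183 to 200.1 CPM, and Dlst, the E2 subunit of the oxoglutarate dehydrogenase complex, from 126 to 146 CPM. The log2 fold changes of these 6 ranged from -0.06 (Dlst) to 0.10 (Mdh2), from -0.07 (Fh) to 0.04 (Dlst) and from -0.04 (Sucla2) to 0.05 (Mdh1) in the 3 comparisons. The first 2 ranges were -0.07 to 0.04 and -0.01 to 0.07 without CPA+veh replicates 1 and 2.

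A second motif set the cycle's promoters beside those of the other steps. CCGGAAG, a core bound by ETS-family factors, was searched on both strands of the same 250 bases and was found in 6 of 14 citric acid cycle promoters (Idh3B, Idh3g, Dlst, Sdhb, Sdhd and Mdh2), 1 of 9 of pyruvate entry (Mpc2), 0 of 15 glycolytic and 0 of 3 transport and regulation promoters. The share among all promoters was 7.27%. The cycle's promoters were also richer in G and C (median 59.8% against 51.2% over all promoters), so this too is a description and no factor's binding is read from it. Sdhb (chr5:158547684-158547933, plus strand, GRCr8) and Sdhd (chr8:59850642-59850891, minus strand, GRCr8) are shown 5′ to 3′, with the match on either strand in capitals:
Sdhb: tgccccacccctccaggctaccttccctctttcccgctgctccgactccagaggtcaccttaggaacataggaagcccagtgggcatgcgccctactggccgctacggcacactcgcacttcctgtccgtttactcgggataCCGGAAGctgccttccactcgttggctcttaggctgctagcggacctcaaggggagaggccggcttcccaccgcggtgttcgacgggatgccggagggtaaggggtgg
Sdhd: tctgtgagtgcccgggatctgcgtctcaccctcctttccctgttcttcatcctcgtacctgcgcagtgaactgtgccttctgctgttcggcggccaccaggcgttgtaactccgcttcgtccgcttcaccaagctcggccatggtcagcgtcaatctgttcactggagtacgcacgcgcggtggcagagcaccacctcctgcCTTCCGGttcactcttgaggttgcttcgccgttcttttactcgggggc

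The steps were then compared by the median log2 fold change of their members, which carries no test. For CPA+veh against control+veh the medians were 0.07 in glycolysis, -0.07 in transport and regulation, 0.00 in pyruvate entry and 0.07 in the citric acid cycle, beside 0.01 over all genes tested. Above 0 were 12 of 16, 0 of 4, 5 of 9 and 13 of 15 members, in sum 30 of 44. Of all genes tested 51.9% were above 0, and of the 8734 genes tested at or above the lowest member's mean 56.5% were. For CPA+RO against CPA+veh the medians were 0.01, 0.08, -0.04 and -0.05 in the same order, beside -0.01 over all genes, with 10 of 16, 4 of 4, 3 of 9 and 4 of 15 above 0. These 2 comparisons share the CPA+veh rats. For CPA+RO against control+veh the medians were 0.05, -0.02, -0.02 and 0.02, with 15 of 16, 1 of 4, 2 of 9 and 10 of 15 above 0, and the last median was below 0 under scaling by total count alone.

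Those medians depend on CPA+veh replicates 1 and 2 and on the scaling. Without the 2 rats the citric acid cycle median for CPA+veh against control+veh was 0.00 with 7 of 15 above 0, and for CPA+RO against CPA+veh 0.01 with 10 of 15 above 0. The glycolysis medians were then 0.03 and 0.05, with 11 of 16 and 15 of 16 above 0. The transport and regulation medians turned to 0.05 and -0.02. For CPA+RO against control+veh, which does not use those rats, scaling by total count alone gave a glycolysis median of 0.02 with 13 of 16 above 0, and turned the citric acid cycle median to -0.02 with 3 of 15 above 0, beside a median of -0.03 over all genes tested.

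Per rat, the same pattern was visible in the median level of each step against the control mean. In glycolysis the medians on the log2 scale were 0.01, 0.00, 0.05 and -0.04 in the control+veh rats, 0.05, 0.15, 0.08 and -0.04 in the CPA+veh rats, and 0.06, 0.05, 0.05 and 0.09 in the CPA+RO rats. All 4 CPA+RO rats were above the control rats at this scaling, but their lowest value (0.0519) was close to the highest control value (0.0473), and CPA+veh ran from the highest to nearly the lowest of the 12. In the citric acid cycle they were 0.02, 0.02, 0.00 and -0.04 in control rats, 0.03, 0.20, 0.02 and -0.02 after CPA with vehicle, and 0.01, 0.03, 0.00 and 0.02 after CPA with RO6958375. Only CPA+veh replicate 2 lay far from the others there. Summed over the 15 genes listed under the cycle, that rat held 3824 CPM against 3411 to 3561 CPM in the other 11 rats. The sum includes the cytosolic Mdh1, which was highest in that rat, at 1129 CPM. Transport and regulation ran the other way in CPA+veh replicates 1 and 2, with medians of -0.13 and -0.14. Pyruvate entry stayed between -0.05 and 0.04 in all 12 rats.

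**Figure D4:**
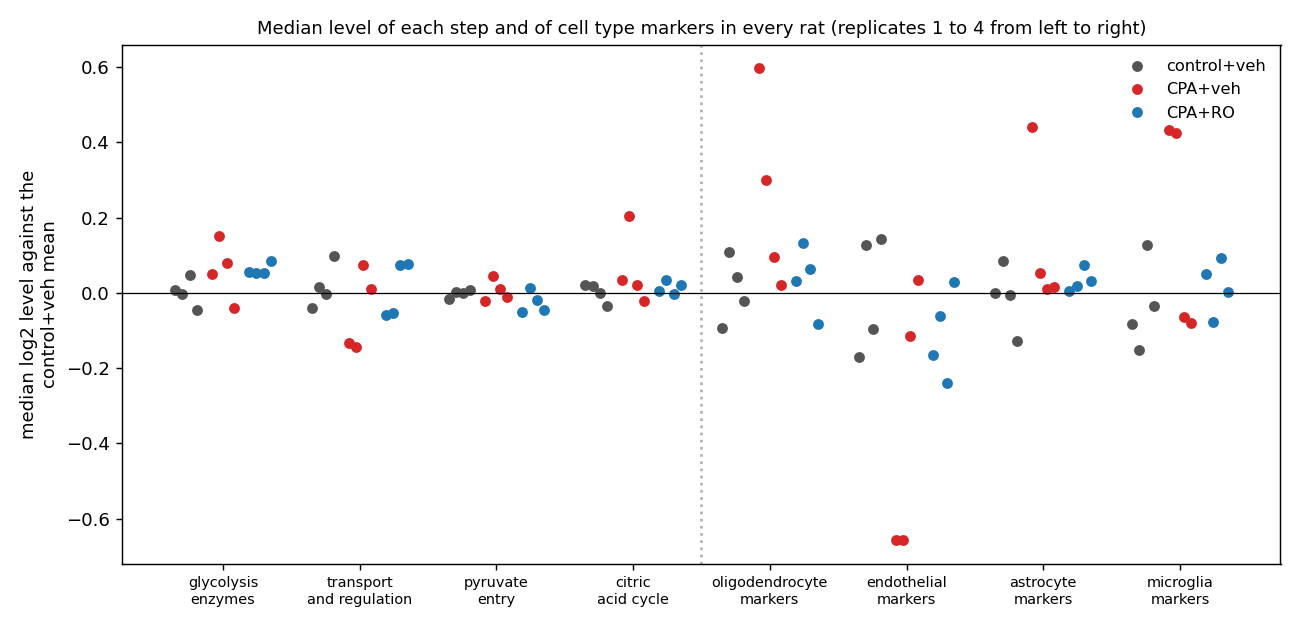
Median log2 level against the control+veh mean for the 4 steps (left) and for markers of 4 cell types (right) in every rat. CPA+veh replicate 2 has the highest citric acid cycle median (0.20), and CPA+veh replicates 1 and 2 are the rats with low endothelial markers (-0.66 each).

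Several marker lists moved with these 2 rats. Oligodendrocyte markers had 14 of 14 log2 fold changes above 0 for CPA+veh against control+veh and 0 of 14 above 0 for CPA+RO against CPA+veh, with summed levels of 2628 to 3007 CPM in the control+veh rats, 2873 to 5136 CPM in the CPA+veh rats and 2712 to 3093 CPM in the CPA+RO rats. Endothelial markers had 0 of 10 and 9 of 10 above 0, with sums of 169 to 223, 122 to 208 and 170.4 to 212 CPM. Microglia markers had 8 of 9 and 2 of 9 above 0, with sums of 276 to 326, 285 to 360 and 276 to 331 CPM. Excitatory neuron markers, from the cells that carried the receptor, had 6 of 9 and 4 of 9 above 0, with sums of 3711 to 4189, 4093 to 4838 and 4047 to 4576 CPM. Their median log2 level was -0.01 in CPA+veh replicate 2 and 0.11 to 0.19 in the other CPA+veh rats. Interneuron markers had 6 of 8 and 2 of 8 above 0, with sums of 705 to 721, 746 to 769 and 707 to 794 CPM, and medians of 0.08 to 0.20 in all 4 CPA+veh rats and 0.06 to 0.13 in all 4 CPA+RO rats. In CPA+RO against control+veh, the comparison in which 6 glycolytic enzymes were higher without overlap at TMM scaling, 7 of 9 excitatory neuron markers were above 0 with a median of 0.15. Higher without overlap were 3 of these 9, 1 of 8 interneuron and 1 of 14 oligodendrocyte markers, and 0 astrocyte, microglia or endothelial markers, where 2.83% of all genes were. In the same comparison 6 of 8 interneuron, 7 of 10 astrocyte, 9 of 14 oligodendrocyte, 5 of 9 microglia and 1 of 10 endothelial markers were above 0. No list held a gene past an adjusted p of 0.05, and the part of cell composition in the members' values was not tested.

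The members' fold changes followed the length of their gene models. Across the 44 genes Spearman's rho between log2 fold change and length was -0.72 for CPA+veh against control+veh, 0.77 for CPA+RO against CPA+veh and 0.11 for CPA+RO against control+veh, beside -0.19, 0.28 and 0.06 across 18465 genes with a length. These are descriptions across genes, which share libraries and are not independent, and the first 2 share the CPA+veh rats. Without CPA+veh replicates 1 and 2 the first was 0.05 and the second 0.15. Short genes such as Aldoc (1.58 kb) and Ldhb (1.42 kb) were above 0 in the first comparison, and long genes such as Slc16a7 (11.4 kb) and Pfkfb2 (9.35 kb) below 0. Within a library the correlation of level with length over all genes, with levels taken against the control+veh mean, was -0.36 in CPA+veh replicate 2. It was -0.19 in CPA+veh replicate 1, and 0.03 and 0.15 in replicates 3 and 4. Control+veh rats, each of them part of that mean, ranged from -0.27 to 0.20 and CPA+RO rats from -0.04 to 0.09. After an offset per library for the trend with length, rho across the 44 was -0.43, 0.42 and 0.03, no member passed an adjusted p of 0.05, and the citric acid cycle medians were 0.03, 0.00 and 0.03. RNA integrity values are not part of the labels, and their part in the relation was not tested.

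**Figure D5:**
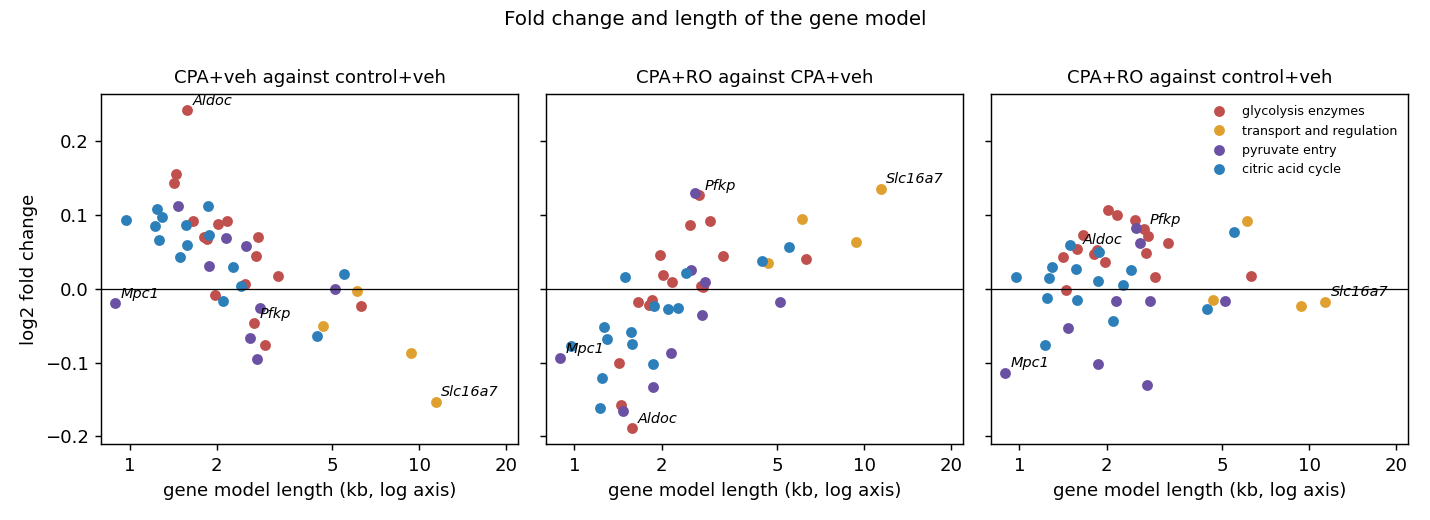
Log2 fold change against gene model length (log axis) for the 44 genes, coloured by step, in the 3 comparisons. Fold changes fall with length in the first panel (rho -0.72) and climb with it in the second (rho 0.77), neither of which held without CPA+veh replicates 1 and 2 (rho 0.05 and 0.15), and show little relation in the third (rho 0.11).

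The spread between rats set how small a difference could be seen. The median within-group SD of the 44 genes was 0.08 on the log2 scale, against 0.17 over all genes tested and 0.10 over the 8734 genes tested at or above the lowest member's mean. By step the median SD was 0.08 in glycolysis, 0.12 in transport and regulation, 0.08 in pyruvate entry and 0.06 in the citric acid cycle. For Cs the 95% interval of the log2 fold change ran from -0.06 to 0.14 for CPA+veh against control+veh, from -0.08 to 0.11 for CPA+RO against CPA+veh and from -0.04 to 0.16 for CPA+RO against control+veh. Cs had a smaller spread than the median member. For CPA+veh against control+veh the interval ran from -0.41 to 0.11 for Slc16a7 and from -0.07 to 0.38 for Tpi1. Differences within such intervals could have gone undetected, and a p above the threshold does not show equal levels.

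Other genes of the same pathways also held no call. Of 27 further glycolysis genes, 25 were tested and 0 passed in any comparison, with 16, 10 and 13 of 25 above 0. Of 28 further pyruvate and citric acid cycle genes, 27 were tested and 0 passed, with 22, 7 and 16 of 27 above 0. Of all genes tested 0.115%, 0% and 0.11% passed in the 3 comparisons, so a count of 0 in lists of this size lies close to the background. Above 0 were 51.9%, 48% and 50% of all genes tested. The part of CPA+veh replicates 1 and 2 in these counts was not tested. Pyruvate carboxylase (Pc), the anaplerotic enzyme found mainly in astrocytes, measured 105, 113, 112 and 107 CPM in control rats, 137, 128, 122 and 115 CPM after CPA with vehicle and 118, 125, 117 and 124 CPM after CPA with RO6958375. Every CPA rat was above every control rat in Pc. Its 2 highest values were those of CPA+veh replicates 1 and 2, and the part of those rats in its fold changes was not tested. Its log2 fold changes were 0.20 ± 0.0566 (SE, edgeR adjusted p = 0.301) for CPA+veh against control+veh and 0.15 ± 0.0566 (SE, edgeR adjusted p = 0.791) for CPA+RO against control+veh. ATP citrate lyase (Acly), which makes cytosolic acetyl-CoA, was higher in all CPA+RO rats than in all control rats (0.16 ± 0.0484 (SE, edgeR adjusted p = 0.57)), and had 0.11 ± 0.0484 (SE, edgeR adjusted p = 0.876) for CPA+RO against CPA+veh. Slc25a10, the mitochondrial dicarboxylate carrier, had 0.20 ± 0.0808 (SE, edgeR adjusted p = 0.448) for CPA+veh against control+veh, and Suclg2, a succinyl-CoA ligase subunit, -0.20 ± 0.0834 (SE, edgeR adjusted p = 0.876) for CPA+RO against CPA+veh. In CPA+veh, Slc25a10 measured 35.1, 35.0, 32.0 and 29.6 CPM and Suclg2 64.0, 62.3, 48.2 and 59.3 CPM. Both genes were highest in CPA+veh replicates 1 and 2, and the part of those rats in the fold changes was not tested.

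In the glycolysis list, Pgm2l1, a glucose-1,6-bisphosphate synthase, had -0.31 ± 0.114 (SE, edgeR adjusted p = 0.418) and basigin (Bsg), a chaperone of monocarboxylate transporters, 0.12 ± 0.0587 (SE, edgeR adjusted p = 0.508) for CPA+veh against control+veh. Pgm2l1 measured 759, 742, 734 and 909 CPM in control+veh and 594, 501, 675 and 764 CPM in CPA+veh. Its lowest values were those of CPA+veh replicates 1 and 2, and its gene model is long (8.50 kb). The part of those rats and of length in its fold change was not tested. ADP-dependent glucokinase (Adpgk) measured 24.5, 19.9, 17.2 and 20.4 CPM in CPA+veh and 14.3, 16.9, 15.8 and 16.7 CPM in CPA+RO, and was lower in every CPA+RO rat (-0.36 ± 0.103 (SE, edgeR adjusted p = 0.876)). Glycogen phosphorylase (Pygm) had -0.19 ± 0.112 (SE, edgeR adjusted p = 0.876) in the same comparison. Pygm was highest in CPA+veh replicates 1 and 2, at 122 and 93.3 CPM, against 75.2 and 88.3 CPM in replicates 3 and 4. For CPA+RO against control+veh, glyceraldehyde-3-phosphate dehydrogenase (Gapdh) had 0.10 ± 0.0564 (SE, edgeR adjusted p = 0.879), with the groups apart at TMM scaling but not by total count alone. Pfkfb1, at under 1 CPM in every rat, had 0.60 ± 0.288 (SE, edgeR adjusted p = 0.878).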

How the data were processed

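RNA of medial prefrontal cortex from 12 rats was sequenced as stranded mRNA libraries (TruSeq Stranded mRNA, HiSeq4000), 4 rats in each of the control+veh, CPA+veh and CPA+RO groups. The authors deposited 1 table of raw whole-number counts per gene and library and 1 table of RPKM values, in which the authors divided counts by gene model length and library size. The submitters' processing notes name bcl2fastq, FastQC, STAR, SAMtools and the builds rn6 and Rnor_6.0. Tool versions, the annotation and the rule for counting were not given in the sources used here. Of counts from 1 to 9, 92.7% were even, and of counts from 10 to 99, 87.5% (the reason was not tested), so a count need not stand for that many independent fragments. Library totals were 64993543 to 79006972 counts.

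Counts were analysed in R 4.3.3 with edgeR 4.0.16: filterByExpr, TMM scaling, 1 quasi-likelihood fit over 12 libraries, 3 contrasts and a test over the 3 groups, with Benjamini-Hochberg adjustment over 19094 genes and a threshold of 0.05. The study's methods state a one-way analysis of variance with the same adjustment, of which this is the counterpart for counts. Log2 levels per library used a prior count of 2. Gene length was recovered from counts and RPKM where mean RPKM was at least 0.05. Alternatives were DESeq2 1.42.0, limma-voom (limma 3.58.1), other scalings and filters, limma on log2(RPKM + 0.1) and log2(RPKM + 1), a length correction (loess span 0.3), the replicate number as a block, and leaving out rats. The code was tested on simulated data. RPKM was used for levels between genes and shares of enzyme forms.

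All 44 members are given. Values in full were given to the 3 genes with the smallest p in each comparison and step and to 11 core enzymes and transporters, and for further lists to the 2 smallest in each comparison. The members and lists were chosen with earlier results of these data known. Animals came from 2 cohorts and were tested on separate days, but no label used here ties a library to either, so batch and group cannot be told apart. The p-values set a difference between groups against the spread between rats of a group, which also holds any difference between test days and cohorts. There were 0 columns of other samples.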

Additional observations from a re-analysis of the deposited data

Results flagged for a closer look

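Of 144 groups of 4 rats examined for a single rat far from the rest (132 of single members and the others of list medians), 4 held one, where chance flags about 1 in 20, or 7.2. Pdhb measured 119.8 CPM in CPA+veh replicate 2, against 104.6 CPM in the nearest rat of that group. Fumarate hydratase (Fh), which turns fumarate into malate, measured 77.46 CPM in control+veh replicate 1 (nearest 69.17 CPM) and 83.22 CPM in CPA+veh replicate 2 (nearest 71.57 CPM). The median log2 level of the glycolytic enzymes against the control mean was 0.0856 in CPA+RO replicate 4, against 0.0551 in the nearest CPA+RO rat.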

How the results depend on the processing

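No member passed an adjusted p of 0.05 in any comparison under any alternative run. At an unadjusted p under 0.05 the 2 members of CPA+veh against control+veh became 11 without CPA+veh replicate 4 (smallest adjusted p 0.143, edgeR). They made up 25.0% of the members, where 16.6% of all genes were under 0.05 as well, against 9.94% with all rats. Without the same rat the 4 members of CPA+RO against CPA+veh became 9 (20.5%, where 10.9% of all genes were under 0.05). The 1 member of CPA+RO against control+veh became 2 (4.55% against 6.2%), and the 1 of the test over the 3 groups became 5 (11.4% against 12.5%). Over all genes the edgeR fit called 22 for CPA+veh against control+veh, 0 for CPA+RO against CPA+veh, 21 for CPA+RO against control+veh and 26 over the 3 groups. DESeq2 called 115, 0, 82 and 120. No filter on low counts gave 48 for CPA+RO against control+veh and 53 over the 3 groups, and a filter of 1 CPM in 4 libraries gave 12, 13 and 12 in the tests other than CPA+RO against CPA+veh. Fits of only the 2 groups compared called 1 for CPA+RO against CPA+veh and 32 for CPA+RO against control+veh. Log2(RPKM + 1) gave 13 and leaving out control+veh replicate 3 gave 17 over the 3 groups. Without CPA+veh replicates 1 and 2, 14 genes were called for CPA+veh against control+veh.

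Step medians moved by more than 1 SD between rats as follows. Without CPA+veh replicates 1 and 2, transport and regulation went to 0.0496 for CPA+veh against control+veh and to -0.0200 for CPA+RO against CPA+veh. Scaling by total count alone, log2(RPKM + 0.1), log2(RPKM + 1) and log2(RPKM + 0.1) without a filter gave, in that order, -0.0295, -0.0294, -0.0279 and -0.0294 for pyruvate entry in CPA+veh against control+veh. The same 4 settings for CPA+RO against control+veh gave 0.0188, 0.0204, 0.0204 and 0.0204 for glycolysis, -0.0513, -0.0499, -0.0492 and -0.0499 for pyruvate entry, -0.0188, -0.0180, -0.0178 and -0.0180 for the citric acid cycle and -0.0126, -0.0121, -0.0102 and -0.0121 for all 44 members. The median over all genes moved too under total count alone, to -0.02, -0.01 and -0.03 in the 3 comparisons. Leaving out 1 rat at a time, pyruvate entry ran from -0.0206 to 0.0250, from -0.0582 to -0.00525 and from -0.0637 to -0.00689 in the 3 comparisons, and for CPA+RO against control+veh the citric acid cycle ran from -0.0103 (without control+veh replicate 4) to 0.0304 and all members from 0.00923 to 0.0363. For CPA+veh against control+veh, glycolysis ran from 0.0307 and the citric acid cycle from 0.0257, both without CPA+veh replicate 2, up to 0.0928 and 0.0858, transport and regulation from -0.0969 to -0.0389 and all members from 0.0187 to 0.0639. In CPA+RO against CPA+veh, glycolysis ran from -0.0268 (without CPA+veh replicate 4) to 0.0349, the citric acid cycle from -0.0712 to -0.0106 (without CPA+veh replicate 2), transport and regulation from 0.0314 to 0.135 and all members from -0.0299 to 0.0144 (without CPA+veh replicate 2). Glycolysis in CPA+RO against control+veh ran from 0.0479 to 0.0710 and transport and regulation from -0.0456 to 0.0238. Members whose groups were apart numbered 2 with DESeq2's size factors and 2 with the length correction for CPA+RO against CPA+veh, and 4 with total count alone for CPA+RO against control+veh, alternatives chosen after the data were seen and not run with rats left out. The cause of these moves was not tested. In 26 alternatives the fold change crossed 0 at least once in 22, 25 and 18 of the 44 members.

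Replicate numbers did not pair the rats: deviations of same-numbered libraries correlated at -0.106 to 0.098 over 12 pairs, and 4 of 12 libraries correlated best with their own number. With the replicate block 0 members were called, 2, 4, 1 and 3 members had an unadjusted p under 0.05 in the 3 comparisons and the test over the 3 groups (9.95%, 4.72%, 5.31% and 6.81% of all genes), and 17, 0, 21 and 21 genes were called in all. With 4 rats a group, whole tissue and a counting rule that is not known, small changes within a cell type are not resolved.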
